A study of Mus musculus with 6 samples.

Results

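The comparison described here sets line B against line A, a pair of mouse embryonic fibroblast lines that were immortalized independently of each other. All 6 arrays of the study took part: 4 were of line A and 2 of line B, assigned by the letter in the sample titles. Every array was of cells without PCAF (gene Kat2b) that carried a conditional GCN5 (gene Kat2a). Line A gave 2 duplicate RNAs labelled PCAF-/-;GCN5+/- and 2 labelled PCAF-/-;GCN5-/-, and line B gave 1 RNA of each genotype. Per the design text, the cells had received a retrovirus with Cre recombinase, which removes the conditional part of GCN5, or the vector alone. No label names the virus of an array, and the groups therefore follow the genotype in the titles. The cells were grown in serum medium, selected with puromycin and given no further treatment; no source used here gives the passage number, the embryo or the way of immortalization. Each line is 1 immortalized population, so the p-values below measure the spread between arrays of these 2 lines and do not extend to other lines. In bulk RNA, fewer cells that express a gene and less RNA per cell cannot be told apart.

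A fibroblast makes and remodels connective tissue, and it keeps a memory of where in the embryo it came from. That memory lies largely in homeobox genes: the Hox genes, which stand in clusters and are used in order along the body axis, and factors such as Shox2, Alx1 and the Irx genes that mark limb, face or body wall. Cells in culture escape senescence by losing the checks that the Ink4 locus (Cdkn2a, Cdkn2b) and p53 impose, and during that passage a single population can take over a dish. Growth of fibroblasts depends on secreted factors of the IGF, PDGF, BMP and Wnt families and on the proteins that bind and restrain them.

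The 2 lines differed more than either the duplicates or the genotypes did. Over 45037 probe sets, each a group of short probes for 1 transcript, log2 differences had a standard deviation (SD) of 0.219 and 0.211 between duplicate RNAs of line A. It was 0.271 to 0.351 between genotypes of 1 line and 0.416 to 0.512 between lines. With genotype as a covariate, limma called 6361 probe sets between the lines at an adjusted p under 0.05 (14.1%), of which 3259 (7.24%) were higher and 3102 (6.89%) lower in line B. Without the line B GCN5+/- array the count was 3016, and it was 4326 without the line B GCN5-/- array. Taking 1 probe set for each of 18193 named genes, the one with the highest mean signal, 3270 genes were called (18.0%): 1642 higher (9.03%) and 1628 lower (8.95%). These shares are the background for every list below, and they take no account of signal level. Of 18 bright housekeeping genes 3 were called higher and 3 lower (33.3% in all). Their median log2 signal was 13.29, against 8.51 for all named genes. A list of bright genes with a share somewhat above 18.0% is therefore not set apart by it. The median difference over all named genes was 0.03, and large differences were more often losses: 662 genes were called at 2-fold or more (3.64%), 447 of them lower in line B (2.46%) and 215 higher (1.18%). Over probe sets that count was 1234 (2.74%), with 810 lower (1.80%) and 424 higher (0.941%). At 16-fold or more, 20 were lower and 7 higher.

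Signs of RNA quality overlapped between the lines. The beta-actin 3' minus 5' difference lay between 0.07 and 0.12 log2 in line A and between 0.07 and 0.09 in line B. Kat2a, the targeted gene, was read by 1 of its 3 probe sets at 9.31 and 10.07 in the GCN5+/- arrays of line A and 11.51 in that of line B. In the GCN5-/- arrays it read 7.97 and 7.85 in line A and 7.75 in line B. The brightest Kat2a probe set did not fall in line A: it read 11.04 and 11.23 in the GCN5+/- and 11.60 and 11.61 in the GCN5-/- arrays of line A, and 11.40 and 10.99 in line B. The line difference of the first probe set was 0.83 ± 0.38 (standard error, SE) and was not called (limma adjusted p = 0.220). Kat2b, deleted in all cells, was below 7.31 at each of its 3 probe sets; the brightest was called lower in line B (-0.69 ± 0.15, limma adjusted p = 0.0143), a call that was lost without either line B array.

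The gene that separated the lines most was Grb10, an imprinted gene whose adaptor protein dampens insulin and IGF receptor signalling. In the order used throughout, line A GCN5+/- (2 arrays), line A GCN5-/- (2 arrays), line B GCN5+/- and line B GCN5-/-, its log2 signals were 14.08, 14.05, 13.79, 13.80, 5.95 and 5.89. Every line A array was near the top of the scale and both line B arrays were far below, with a log2 difference of -8.01 ± 0.08 (SE; limma adjusted p = 5.97e-10). All 3 Grb10 probe sets were called lower in line B, with differences from -8.01 to -2.57. Efemp1, which encodes the matrix protein fibulin-3, was the mirror image: 5.64, 5.82, 5.78 and 6.14 in line A against 13.13 and 13.09 in line B, a difference of 7.27 ± 0.14 (limma adjusted p = 3.79e-08). Igfbp2, a secreted binding protein for IGFs, was at 12.70, 11.99, 12.13 and 11.47 in line A and at 5.73 and 6.22 in line B, a difference of -6.10 ± 0.28 (limma adjusted p = 3.08e-06). For these 3 genes no array of one line came within 5 log2 units of the other line. Signals near the floor of the scale compress differences.

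The other genes at the head of the list were of many kinds. Lower in line B were Cemip (-5.09 ± 0.32), which degrades hyaluronan; Rasl11a (-4.89), a small GTPase; Mgst1 (-4.84), a microsomal glutathione transferase; Cyp7b1 (-4.57) and Ch25h (-4.32), both enzymes of oxysterol metabolism; and Trim25 (-4.58), a ubiquitin ligase of antiviral signalling. Serpinb6b (-4.46), Ms4a4d (-4.34) and Ctla2a (-4.21) closed that side. Higher in line B were Epb41l4a (4.71), Gatm (4.70), which makes the creatine precursor, Msln (4.66), the cell surface protein mesothelin, and Sema5a (4.14 at its most significant probe set), a guidance molecule. Crabp1 (3.93), a retinoic acid binding protein, Capn6 (3.76), Bmp2 (3.66), Asb4 (3.51), Btbd11 (3.49) and Arhgap6 (3.33) followed, with 3110039M20Rik (4.13) and Evi2a (4.04). These 30 genes, 15 in each direction, were taken from called probe sets on which the arrays of the lines did not overlap. The call and the lack of overlap were thus set by that choice. Their limma adjusted p was 0.000573 or less.

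**Figure D1:**
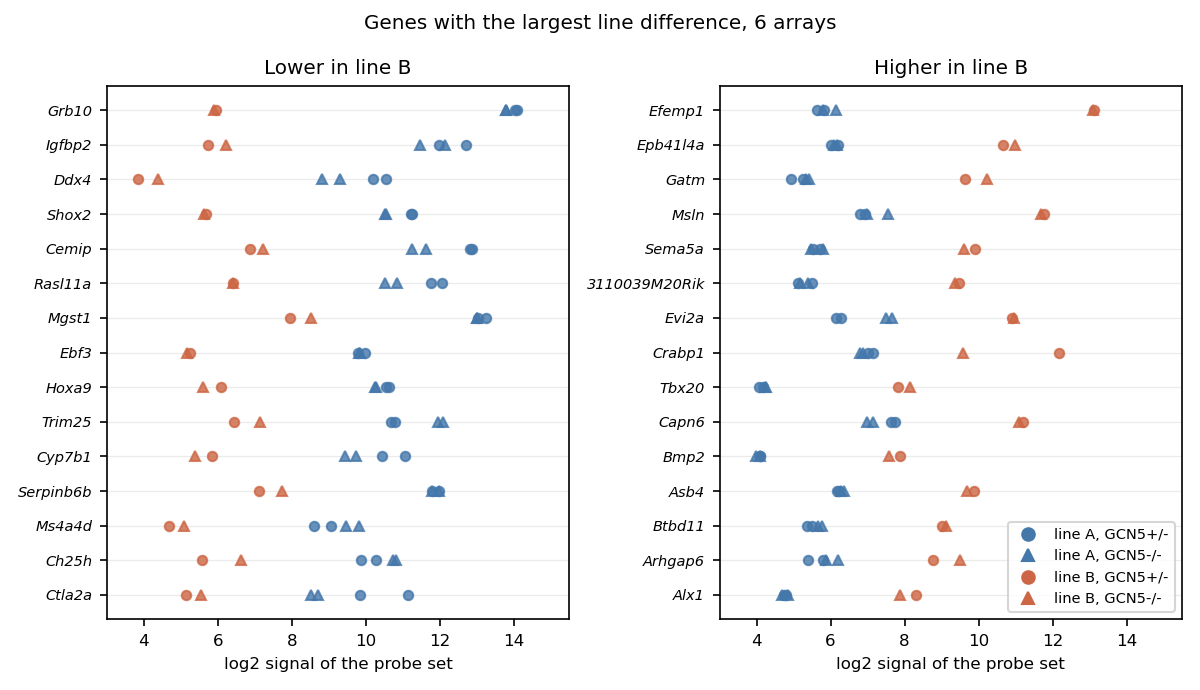
Log2 signals (x axis) of the 15 genes with the largest called difference in each direction, 1 point per array, coloured by line and shaped by genotype. Grb10 sits between 13.79 and 14.08 in line A and at 5.95 and 5.89 in line B. Only genes whose line A and line B points do not overlap were eligible.

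The promoters of 4 of these genes are printed because each gene was near the floor of the scale in one line and well expressed in the other. Each is the 250 bases before the RefSeq transcript start (GRCm38.p6), with every CG dinucleotide, the site that DNA methylation uses and that reads the same on both strands, in capitals. Grb10, chr11:12037421-12037670 (minus strand), is the richer of its 2 entries:
Grb10: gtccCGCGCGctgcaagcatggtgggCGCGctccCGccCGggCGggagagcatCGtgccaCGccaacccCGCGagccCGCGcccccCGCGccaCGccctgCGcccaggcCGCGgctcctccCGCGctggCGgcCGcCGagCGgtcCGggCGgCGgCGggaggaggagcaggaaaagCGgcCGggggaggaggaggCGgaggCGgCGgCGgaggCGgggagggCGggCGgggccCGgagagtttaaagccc
Ddx4, a germ cell RNA helicase described below, chr13:112652311-112652560 (minus strand):
Ddx4: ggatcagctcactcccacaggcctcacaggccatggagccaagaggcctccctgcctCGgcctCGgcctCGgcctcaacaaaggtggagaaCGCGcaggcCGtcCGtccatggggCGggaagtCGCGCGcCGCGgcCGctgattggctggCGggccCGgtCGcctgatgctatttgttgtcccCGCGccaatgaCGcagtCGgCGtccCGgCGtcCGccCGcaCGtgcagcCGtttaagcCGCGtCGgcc
Efemp1, chr11:28852955-28853204 (plus strand):
Efemp1: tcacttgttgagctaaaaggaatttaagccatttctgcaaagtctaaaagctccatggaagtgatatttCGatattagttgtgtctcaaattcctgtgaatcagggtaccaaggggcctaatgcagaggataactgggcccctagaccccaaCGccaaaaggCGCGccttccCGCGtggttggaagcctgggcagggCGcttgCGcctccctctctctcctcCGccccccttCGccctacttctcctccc
Shox2, a limb homeobox gene described below, chr3:66981772-66982021 (minus strand):
Shox2: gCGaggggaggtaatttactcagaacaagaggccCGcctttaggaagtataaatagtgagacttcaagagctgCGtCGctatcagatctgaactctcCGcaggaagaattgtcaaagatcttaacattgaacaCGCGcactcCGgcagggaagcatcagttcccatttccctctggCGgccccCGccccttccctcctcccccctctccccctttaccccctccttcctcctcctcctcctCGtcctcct
The Grb10 window holds 40 CG, a number reached by 1.53% of the promoters of 27025 genes, and that of Ddx4 holds 31 (5.86%). Efemp1 has 10 (40.2%) and Shox2 has 11 (38%). Named genes on the array have more than the whole table, and 62.6% of those with an entry hold at least 10. The median was 14 CG over 14452 named genes with an entry, 14 over 145 of the 215 genes at least 2-fold higher in line B, and 12 over 334 of the 447 at least 2-fold lower. DNA methylation was not measured.

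Positional genes differed by cluster. Of 34 Hox genes measured, 10 were called, 8 lower and 2 higher in line B, and they all lay in the A and C clusters. In the A cluster 5 of 10, Hoxa11os included, were lower (background 8.95%) and none higher. Hoxa9, a gene of trunk and limb, was at 10.63, 10.55, 10.25 and 10.29 in line A and at 6.09 and 5.59 in line B (-4.59 ± 0.10, limma adjusted p = 1.06e-07). Its neighbours differed less: Hoxa7 by -1.31 ± 0.10, Hoxa4 by -1.11, Hoxa3 by -0.74 and Hoxa5 by -0.69. Hoxa10, Hoxa11 and Hoxa13, the genes beyond Hoxa9 in the cluster, were between 4.74 and 6.29 in all arrays. The calls of Hoxa3 and Hoxa5 were lost without the line B GCN5+/- array (limma adjusted p = 0.110 and 0.0682).

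In the C cluster the direction changed along the row of genes. Hoxc5 was at 10.68, 10.80, 10.32 and 10.41 in line A and 8.26 and 8.02 in line B (-2.41 ± 0.10, limma adjusted p = 1.77e-06). Hoxc6 (-1.23 ± 0.09) and Hoxc8 (-1.35 ± 0.11) were lower too. The next genes went the other way: Hoxc9 was at 8.38, 8.64, 8.28 and 8.43 in line A against 10.02 and 9.57 in line B (1.36 ± 0.13, limma adjusted p = 0.000179). Hoxc10 was at 5.10, 5.24, 5.42 and 4.95 against 7.05 and 6.33 (1.51 ± 0.18, limma adjusted p = 0.000775). Line B therefore read higher at the 2 more posterior of these 5 genes and lower at the 3 more anterior. Hoxc4 differed by -0.28 and was not called (limma adjusted p = 0.0909). None of the 5 was lost when any 1 array was left out.

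The B and D clusters gave no call with limma, and no gene of either had an unadjusted p under 0.05. Hox B genes were expressed in both lines, with Hoxb2, Hoxb4, Hoxb6 and Hoxb9 between 9.54 and 11.09 in all arrays, and their 9 differences lay between -0.22 and 0.19. The 8 Hox D genes had low signals in every array, with differences between -0.06 and 0.16. Among Hox cofactors, which bind DNA together with Hox proteins, Pknox2 (-1.52 ± 0.13) and Meis1 (-1.06 ± 0.12) were lower in line B, and 3 of 10 were called in all.

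**Figure D2:**
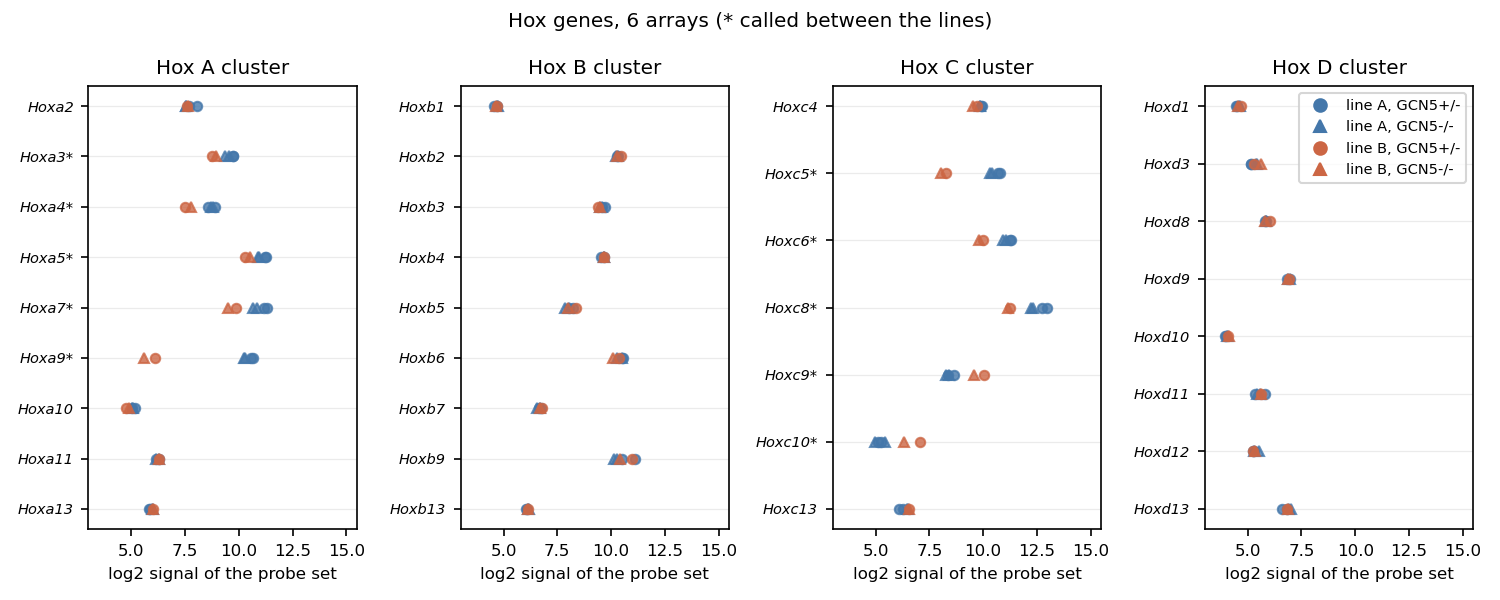
Log2 signals (x axis) of the Hox genes measured, by cluster and in their numbered order from top to bottom, 1 point per array, coloured by line and shaped by genotype; an asterisk marks a gene called between the lines. Hoxa9 and Hoxc5 separate to the left in line B, Hoxc9 and Hoxc10 to the right, and the B and D clusters coincide.

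Other homeobox factors of limb and body wall showed 6 lower and 5 higher of 44 measured. Shox2, needed for proximal limb growth, was at 11.21, 11.25, 10.54 and 10.52 in line A and at 5.67 and 5.64 in line B (-5.23 ± 0.15, limma adjusted p = 2.11e-07). En1, a marker of ventral limb ectoderm and of dermal fibroblast lineages, differed by -2.44 ± 0.13, the tendon factor Mkx by -2.38 ± 0.10, Gbx2 by -1.36 and Emx2, a gene of shoulder girdle and urogenital tissue, by -0.87. Higher in line B was Alx1, a factor of frontonasal mesenchyme, at 4.79, 4.74, 4.85 and 4.69 in line A and 8.30 and 7.87 in line B (3.32 ± 0.12, limma adjusted p = 8.07e-07). Irx2 (2.26 ± 0.16) and Irx5 (2.23 ± 0.19), members of separate Irx gene clusters, and Msx2 (1.07 ± 0.12) were higher as well. The general limb mesenchyme factors Prrx1 (0.08 ± 0.09), Msx1 (0.05 ± 0.13) and Tbx5 (0.02 ± 0.10) and the hindlimb factor Pitx1 (0.03 ± 0.12) were not called, and Tbx5 and Pitx1 lay between 6.90 and 7.71 in all arrays.

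Of 9 T-box genes, 3 were called, all higher in line B. Tbx18, a factor of epicardium and somite, was at 7.16, 7.27, 7.16 and 7.49 in line A and at 8.75 and 8.52 in line B (1.36 ± 0.13, limma adjusted p = 0.000258). Tbx3 differed by 0.85 ± 0.10. Tbx20, known from heart, was called higher at all 3 of its probe sets, by 0.40 at the brightest and 3.79 ± 0.09 at another; the call of the brightest was lost without any 1 of the 6 arrays. In a wider set of mesenchymal regulators (Pax, Zic, Fox and bHLH families) 12 of 58 were lower and 5 higher. Ebf3 was at 10.33, 10.47, 10.41 and 10.48 in line A and 5.66 and 5.97 in line B (-4.61 ± 0.11, limma adjusted p = 1.32e-07), while its relative Ebf2 was higher in line B (1.49 ± 0.23, and 0.87 without the line B GCN5+/- array). Sox11, a progenitor factor, differed by -3.16 ± 0.11, Foxf2 by -1.42, Wt1 by -1.38 and Foxd1 by -1.14, and Foxc2 by 1.04.

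Guidance molecules, which tell migrating cells and axons where to go, included 11 of 64 higher and 10 lower. Sema5a was at 6.25, 5.96, 6.07 and 6.28 in line A and 10.61 and 10.01 in line B at its brightest probe set (4.16 ± 0.17, limma adjusted p = 1.46e-06). Sema3a (1.47 ± 0.13), Ntn1 (1.46 ± 0.14) and the Slit receptor Robo1 (1.19 ± 0.13) were also higher. The ephrin receptors Epha1 (-1.98 ± 0.18), Epha3 (-1.76 ± 0.27, and -1.05 without the line B GCN5+/- array) and Epha4 (-1.12) were lower, and the Epha4 call was lost without the line B GCN5+/- array (limma adjusted p = 0.114). Without that array 12 members of the list were called in place of 21.

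Of 33 collagen genes 8 were called lower in line B and 4 higher. Col1a2, a chain of type I collagen, differed by -0.05 ± 0.06 and was not called (limma adjusted p = 0.640); Col1a1 (-0.23 ± 0.04) and Col3a1 (-0.22 ± 0.04) were lower by small amounts. Col2a1, the main collagen of cartilage, was at 11.36, 10.27, 10.25 and 9.22 in line A and at 8.10 and 7.59 in line B (-2.43 ± 0.34, limma adjusted p = 0.00178). Col14a1 (-1.93 ± 0.19) and Col12a1 (-1.44 ± 0.15), which coat collagen fibrils, were lower too, as was Col11a1 (-1.21 ± 0.21), whose call was lost without the line B GCN5-/- array (limma adjusted p = 0.0679). The 3 chains of type VI collagen went together in the other direction: Col6a1 by 0.57 ± 0.06, Col6a2 by 0.82 ± 0.07 and Col6a3 by 0.96 ± 0.22. The Col6a3 call was lost without either line B array and without 1 of the line A GCN5-/- arrays (limma adjusted p between 0.0633 and 0.167).

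Proteins of the basement membrane, the sheet that underlies epithelia and vessels, had 8 of 28 members lower and 3 higher. Without 1 line A GCN5-/- array (replicate 2) 6 members were called in place of 11. Smoc2 was at 11.32, 11.80, 10.92 and 10.91 in line A and 8.67 and 8.46 in line B (-2.67 ± 0.15, limma adjusted p = 9.92e-06). Its relative Smoc1 differed by -2.44 ± 0.22, and the laminin chains Lama4 by -2.09 ± 0.13 and Lama1 by -1.62 ± 0.20. Genes of elastic fibres had 8 of 22 lower and 4 higher. Mfap2 (-1.92 ± 0.11), Fbn2 (-1.83 ± 0.14) and Mfap5 (-1.70 ± 0.17), components or partners of microfibrils, were lower, while Hmcn1 (1.84 ± 0.28, and 1.08 without the line B GCN5+/- array) was higher beside Efemp1. Elastin itself (Eln) differed by 0.08 ± 0.11 and was not called. Of the small proteoglycans, 2 of 15 were higher and 2 lower, and 2 in all were called without the line B GCN5+/- array or 1 line A GCN5+/- array (replicate 2). Lum, the keratan sulfate proteoglycan lumican, was at 6.43, 6.45, 5.51 and 5.80 in line A and at 10.59 and 7.48 in line B (2.99 ± 0.41, limma adjusted p = 0.00159, and 1.83 without the line B GCN5+/- array).

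Matricellular and adhesive glycoproteins, which signal from the matrix more than they build it, had 13 of 39 members lower and 5 higher. Ccn3 was at 13.43, 13.58, 11.74 and 11.45 in line A and at 9.62 and 9.31 in line B (-3.08 ± 0.29, limma adjusted p = 0.000189). Svep1, a large adhesion protein, differed by -3.04 ± 0.19, Ccn5 by -1.82 ± 0.12 and Tgfbi by -1.71 ± 0.14. The hyaluronan synthases went in opposite directions: Has2 was lower (-1.83 ± 0.11) and Has1 higher (1.13 ± 0.14) in line B. Matn2 was higher by 1.51 ± 0.14. Among matrix proteases and their inhibitors 12 of 46 were lower and only Mmp2 (0.48 ± 0.07) was higher. Mmp2 lies on chromosome 8, whose genes as a whole read higher in line B (below). Mmp23 was at 11.10, 11.09, 11.32 and 11.26 in line A and 8.41 and 8.42 in line B (-2.78 ± 0.09, limma adjusted p = 5.26e-07), the aggrecan-cleaving enzymes Adamts9 and Adamts5 differed by -2.24 ± 0.19 and -1.69 ± 0.07, and the lysosomal collagenase Ctsk by -1.43 ± 0.12. The membrane collagenase Mmp14 was not called (0.07 ± 0.14).

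Cell surface adhesion genes differed in the opposite balance. Of 33 cadherins and related adhesion molecules 11 were higher in line B and 6 lower. On chromosome 8, whose genes as a whole read higher in line B (below), lie 8 of the 33. Of those 8, Cdh3 and Cdh13 were called higher and 1 lower. Of the 25 elsewhere 9 were higher and 5 lower. Alcam was at 7.04, 6.57, 7.68 and 7.38 in line A and 9.58 and 10.27 in line B (2.76 ± 0.15, limma adjusted p = 8.65e-06), and Cdh3, the P-cadherin gene, at 7.53, 7.48, 7.54 and 7.42 against 10.06 and 9.65 (2.36 ± 0.12, limma adjusted p = 5.86e-06). Nrcam (1.91 ± 0.24) and Cdh13 (1.74 ± 0.12) were higher, and Pcdh7 was lower (-2.35 ± 0.27). The mesenchymal cadherin Cdh2 was equal within its error (-0.03 ± 0.15, not called), with log2 signals of 10.26 or more in all arrays. Without the line B GCN5+/- or the line B GCN5-/- array 11 members were called in place of 17. Among 18 integrins 5 were higher and 3 lower, and 5 in all were called without the line B GCN5+/- array. The laminin-binding chains Itga6 (1.81 ± 0.18) and Itga7 (1.46 ± 0.12) were higher and the collagen-binding chain Itga1 lower (-2.12 ± 0.16).

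**Figure D3:**
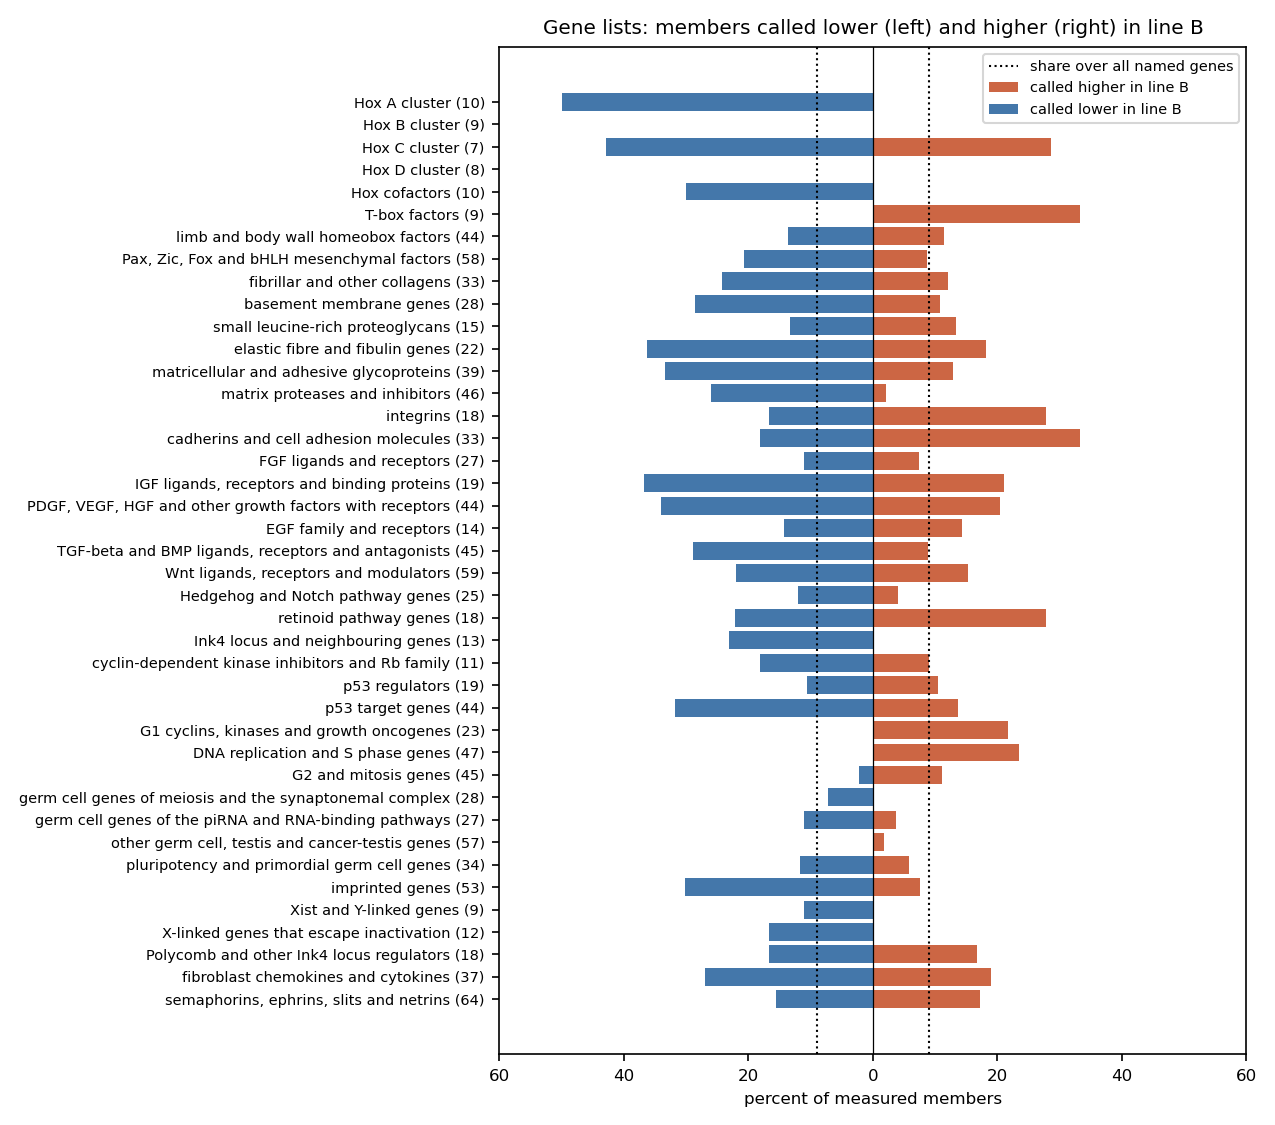
Percent of the measured members of each gene list (number in brackets) called lower in line B (bars to the left) and higher in line B (bars to the right); dotted lines mark the shares over all named genes, 8.95% and 9.03%. Hox A reaches 5 of 10 lower, cadherins 11 of 33 higher, and the Hox B and Hox D clusters have no bar. The lists of cell type markers, housekeeping genes, interferon-stimulated genes and the targeted genes are not drawn.

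The IGF system was the growth pathway with the largest single differences. Beside Grb10 and Igfbp2, line B was lower for Igfbp3, which was at 10.91, 12.13, 8.84 and 9.21 in line A and at 6.09 and 6.45 in line B (-4.01 ± 0.56, limma adjusted p = 0.00180, and -2.58 without the line B GCN5+/- array). The ligand Igf2 was at 13.66, 13.80, 12.38 and 12.50 in line A and at 10.59 and 9.07 in line B (-3.26 ± 0.08, limma adjusted p = 1.43e-07). Its clearance receptor Igf2r differed by -1.05 ± 0.13 and Pappa, a protease that frees IGF from binding proteins, by -1.27 ± 0.20. Igfbp4 stood on the other side, at 10.98, 10.98, 10.56 and 10.18 against 13.01 and 12.25 (1.95 ± 0.11, limma adjusted p = 9.89e-06). The receptor Igf1r (-0.00 ± 0.10), the ligand Igf1 (-0.10 ± 0.11) and Igfbp5 (0.07 ± 0.14) were not called. In all 7 of 19 members were lower and 4 higher, and 6 in all were called without the line B GCN5+/- array.

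Genes of the BMP and TGF-beta pathways had 13 of 45 members lower in line B and 4 higher. The antagonist Fst, follistatin, was at 11.59, 11.66, 11.88 and 12.19 in line A and 7.08 and 8.07 in line B (-4.25 ± 0.15, limma adjusted p = 6.17e-07). The 4 Id genes, which are direct BMP targets, were all lower: Id4 by -3.46 ± 0.20, Id2 by -2.05 ± 0.26 (-1.33 without the line B GCN5+/- array), Id1 by -1.68 ± 0.12 and Id3 by -1.40 ± 0.10. The pathway's own brake Smad6 (-1.21 ± 0.14), the modulator Bmper (-1.45 ± 0.12) and the ligand Bmp4 (-1.06 ± 0.08) were lower as well. The 4 higher genes were Tgfb1 (0.70 ± 0.15), Tgfb3 (0.55 ± 0.12), the receptor Tgfbr2 (0.60 ± 0.12) and the ligand Bmp2. The calls of Tgfb1, Tgfb3 and Tgfbr2 were not kept in every fit that left out 1 array. Their lowest differences in those fits were 0.37, 0.48 and 0.34. The other Tgfb1 probe set differed by -0.01 and was not called. Bmp2 was at 4.09, 4.08, 3.98 and 4.09 in line A and at 7.88 and 7.57 in line B (3.66 ± 0.10, limma adjusted p = 1.65e-07). The antagonist Grem1 was not called (-0.49 ± 0.15, limma adjusted p = 0.0633). Without the line B GCN5+/- array 11 members were called in place of 17.

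Wnt pathway genes had 13 of 59 members lower and 9 higher, and secreted modulators stood at both ends. The antagonists Sfrp1, at 13.44, 13.75, 13.06 and 13.14 in line A and 8.76 and 8.88 in line B (-4.53 ± 0.14, limma adjusted p = 3.54e-07), and Frzb (-3.60 ± 0.23) were lower. The agonists Rspo2 (-3.57 ± 0.10) and Rspo3 (-2.89 ± 0.26) were lower too, so both agonists and antagonists were among the lower genes. Higher in line B were Dkk2 (2.62 ± 0.13), Wnt10b (1.97 ± 0.11), the receptor Fzd6 (1.59 ± 0.10) and Dkk3 (1.58 ± 0.12). Axin2, a common target of the canonical pathway, was not called (0.33 ± 0.14, limma adjusted p = 0.166).

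Of 44 other growth factors and receptors, including the PDGF, VEGF and HGF families, 15 were lower and 9 higher. Pdgfra, the receptor that marks most fibroblasts, was at 12.78, 13.01, 12.04 and 12.51 in line A and 10.84 and 10.52 in line B (-1.91 ± 0.14, limma adjusted p = 3.91e-05), and Pdgfrb differed by -0.85 ± 0.12. The ligand Hgf was lower by -1.78 ± 0.21 and Gas6 by -1.70 ± 0.13, whereas Mertk, a receptor for Gas6, was higher (1.78 ± 0.13). Flt4, a VEGF receptor, was higher by 1.61 ± 0.12. Without the line B GCN5+/- array 16 of the list were called in place of 24. In the EGF family Egfr (-1.08 ± 0.16) and Nrg1 (-1.51 ± 0.12) were lower and Hbegf (1.03 ± 0.12) higher, 4 of 14 in all. FGF genes gave 3 lower and 2 higher of 27, none by 2-fold, and 1 in all without the line B GCN5+/- array. In the Hedgehog and Notch list 3 of 25 were lower, among them Jag1 (-1.82 ± 0.21) and Gli2 (-1.30 ± 0.17), and 1 was higher.

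Retinoid genes went in both directions. Aldh1a1, which makes retinoic acid, was at 8.70, 8.04, 8.58 and 8.40 in line A and 5.74 and 6.06 in line B (-2.53 ± 0.18, limma adjusted p = 3.35e-05), and Cyp26b1, which destroys it, differed by -1.45 ± 0.20. Rdh10, which makes the precursor retinal, was higher (0.64 ± 0.17). Of the receptors Rarb was higher (2.04 ± 0.35) and Rxra lower (-0.57 ± 0.09), and the binding proteins Crabp1 and Crabp2 (1.25 ± 0.22) were higher. The calls of Rdh10, whose difference fell to 0.27, and of Rxra were not kept in every fit that left out 1 array. Crabp2 was at 7.67 and 7.78 in the GCN5+/- arrays of line A and at 9.56 in that of line B. Its line difference was 1.84 without the line B GCN5-/- array and 0.67 without the line B GCN5+/- array. The lines thus stood closer in GCN5-/- arrays, where line B read 9.66. Crabp1 read 7.02, 7.14, 6.88 and 6.79 in line A and 12.17 and 9.59 in line B. Of 18 members 5 were higher and 4 lower, and 5 in all were called without the line B GCN5+/- array.

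The Ink4 locus was expressed in both lines. Cdkn2a, which encodes p16Ink4a and p19Arf, was at 11.31, 11.48, 10.98 and 10.95 in line A and at 11.37 and 10.84 in line B; the arrays overlapped and the difference was -0.08 ± 0.08 (limma adjusted p = 0.645). Its probe set does not tell the 2 products apart on the evidence used here. The neighbouring inhibitor Cdkn2b, p15Ink4b, was at 12.41, 12.58, 11.98 and 11.92 against 11.71 and 11.33 (-0.70 ± 0.08, limma adjusted p = 0.000502). Mtap, the next gene, was not called at any of 4 probe sets, with differences from -0.16 to -0.08. Neither line thus read low at the locus. Of 13 genes in and around it 3 were lower and none higher.

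Genes listed here as p53 targets were lower more often than higher in line B: 14 of 44 lower and 6 higher. Whether each member answers to p53 in these cells was not tested. Of the 6 higher members 2, Dda1 and Ckap2, lie on chromosome 8, whose genes as a whole read higher in line B (below). Cdkn1a, the cell cycle inhibitor p21, was at 10.68, 10.16, 10.75 and 10.26 in line A and at 9.47 and 9.31 in line B (-1.07 ± 0.18, limma adjusted p = 0.00428), and its other probe set differed by -1.24 ± 0.29. The call of that other probe set was not kept in every fit that left out 1 array. The death genes Perp (-2.97 ± 0.31) and Fas (-1.71 ± 0.18) and the stress gene Trp53inp1 (-2.36 ± 0.26) were lower, with Phlda3 (-0.95 ± 0.09) and Ccng1 (-0.58 ± 0.11). Others were not called, among them Bbc3 (-0.06 ± 0.12), Zmat3 (-0.21 ± 0.11) and Sesn2 (-0.40 ± 0.15). Ddit4 was higher by 1.07 ± 0.14. Mdm2, which p53 both induces and is degraded by, was not called at any of its 3 probe sets (-0.06 to 0.04). The count depended on 1 array: without the line B GCN5+/- array 8 members were called in place of 20, and 15 without the line B GCN5-/- array.

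Cell cycle genes differed little in size. Of 47 DNA replication genes 11 were called, all higher in line B and none by 2-fold. The largest were Cdt1, a licensing factor, at 11.83, 11.87, 12.29 and 12.29 in line A and 12.75 and 12.87 in line B (0.74 ± 0.08, limma adjusted p = 0.000449), Gins4 (0.62 ± 0.09), Orc6 (0.56 ± 0.07), Mcm5 (0.55 ± 0.07) and Gins3 (0.54 ± 0.10). With Gins2 (0.46 ± 0.09, and 0.30 and not called without the line B GCN5+/- array) these are the 6 members of the list on chromosome 8, whose genes as a whole read higher in line B (below); 5 of the 41 members elsewhere were called. The Gins3 call was not kept in every fit that left out 1 array. Pcna (0.06 ± 0.05) and the proliferation marker Mki67 (-0.12 ± 0.12) were not called. Of 45 genes of G2 and mitosis 5 were higher and 1 lower, and of 23 G1 genes 5 were higher. Among the latter was E2f4 (0.79 ± 0.13), also on chromosome 8, whose call was lost without the line B GCN5+/- array. Without that array 6 replication, 3 mitosis and 2 G1 genes were called. Without 1 line A array the lowest counts were 8, 3 and 2, the 3 without line A GCN5+/- replicate 1 and the 2 without line A GCN5-/- replicate 1.

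A germ cell gene was strongly expressed in line A alone. Ddx4, the Vasa RNA helicase, was at 10.20, 10.54, 8.80 and 9.31 in line A and at 3.85 and 4.39 in line B (-5.60 ± 0.35, limma adjusted p = 1.80e-05). Of other germ cell genes, the RNA-binding factor Dazl and the synaptonemal gene Sycp3 were not called: Dazl read 5.23 to 5.38 in all arrays and Sycp3 3.96 to 4.55. In the piRNA and RNA-binding list 3 of 27 were lower and 1 higher, with Cpeb1 (-1.14 ± 0.10) and Tdrkh (-0.65 ± 0.09) beside Ddx4. Meiosis genes gave 2 of 28 lower, and none without the line B GCN5-/- array (limma), and among 57 other germ cell and testis genes 1 was called, the placental gene Plac1 (1.66 ± 0.13). Of 34 pluripotency and primordial germ cell genes 4 were lower and 2 higher, and Pou5f1 (0.15 ± 0.10) and Nanog (-0.21 ± 0.11) were not called and lay between 4.96 and 6.05. Each of these germ cell lists had a smaller share of calls than the 18.0% of all named genes, apart from the pluripotency list, which was near it. The median log2 signals of these lists lay between 5.68 and 6.47, against 8.51 for all named genes. Low signals compress differences, so the smaller shares do not show that the lines were alike in these genes.

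Imprinted genes, which are read from 1 parental copy, were lower in line B at 16 of 53 and higher at 4. Beside Grb10 and Igf2 the lower group held Dlk1, at 12.92, 13.06, 12.27 and 11.82 in line A and 11.03 and 9.29 in line B (-2.36 ± 0.18, limma adjusted p = 5.73e-05), Peg3 (-2.25 ± 0.30), Mest (-1.49 ± 0.25) and Ndn (-0.87 ± 0.10). The higher group held Gatm, at 5.26, 4.94, 5.33 and 5.40 against 9.64 and 10.23 (4.70 ± 0.13, limma adjusted p = 1.81e-07), Asb4 (3.51 ± 0.11) and Airn (1.12 ± 0.12). Airn is the antisense transcript of the Igf2r region, and Igf2r was lower. The Mest call was lost without the line B GCN5+/- array (limma adjusted p = 0.0614). Xist, the RNA that coats the inactive X chromosome, was high in both lines. It was at 13.60, 13.40, 13.48 and 13.13 in line A and 12.81 and 12.54 in line B at its brightest probe set (-0.73 ± 0.10, limma adjusted p = 0.00139). The 11 Y-linked probe sets other than those of Sry and Uba1y read 3.42 to 5.46 in all arrays, and none was called.

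Secreted inflammatory signals differed in both directions. Of 37 fibroblast chemokines and cytokines 10 were lower and 7 higher, 3 of the 7 on chromosome 8 (below). Il6 was at 10.21, 10.00, 11.34 and 11.35 in line A and 5.86 and 8.25 in line B (-3.67 ± 0.22, limma adjusted p = 1.43e-05), Il1rn, the interleukin-1 receptor antagonist, differed by -3.72 ± 0.18 and the neutrophil chemokine Cxcl1 by -2.46 ± 0.10. Higher in line B were Il33 (1.92 ± 0.18), the related chemokine Cxcl5 (1.90 ± 0.16) and Tslp (1.63 ± 0.26, and 0.95 without the line B GCN5+/- array). Interferon-stimulated genes, which act against viruses, were lower in line B at 23 of 41 and higher at 1. All 41 were also called higher in GCN5-/- than in GCN5+/- arrays (limma), where genotype called 4.47% of all probe sets, and their median line difference was -0.45 in GCN5+/- and -1.12 in GCN5-/- arrays. Of the 23, 5 had line B below every line A array. Over all named genes, called or not, that held for 2700 of 18193 (14.8%). Trim25 was among the 5, at 10.67, 10.78, 11.95 and 12.08 against 6.43 and 7.15.

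Both lines carried the general markers of fibroblasts. Vim, Col1a2, Fn1 and P4hb lay between 14.13 and 14.89 in every array, with line differences of 0.11, -0.05, -0.08 and -0.04 that were not called. They were picked from the list for high signal and a difference under 0.2, so their likeness was set by that choice. Of all 20 markers 7 were lower in line B and 6 higher (65.0% called, against 18.0% of all named genes). The median absolute difference of the 20 was 0.50, against 0.13 over all named genes. Their summed linear signal was 197690 to 226178 in line A and 204392 to 214647 in line B. Within that shared state surface markers differed: Thy1, a glycoprotein used to sort fibroblasts, was at 6.19, 6.05, 6.21 and 6.02 in line A and at 9.54 and 8.60 in line B (2.95 ± 0.19, limma adjusted p = 2.14e-05), opposite to Pdgfra. Markers of mesothelium, the lining of body cavities, gave a mixed picture. Msln lay between 6.80 and 7.56 in line A and 11.77 and 11.69 in line B, and Krt19 was higher by 2.86 ± 0.16, while Wt1 was lower (-1.38 ± 0.11). Upk3b (0.10 ± 0.15), Upk1b (0.09 ± 0.10), Lrrn4 (-0.06 ± 0.10) and Muc16 (0.03 ± 0.10), other mesothelial genes, were not called. The 8 markers summed to 1030 to 1171 in line A and 5869 to 6216 in line B.

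Markers of other cell types were partly expressed and differed in part. Smooth muscle and myofibroblast markers, which cultured fibroblasts also express, had 4 of 14 lower and 3 higher, each by less than 2-fold, with summed signals of 81421 to 94212 in line A and 89791 to 97462 in line B. Neural markers had 3 of 11 higher and 2 lower (4062 to 4878 against 5535 to 6982). Adipocyte markers had 2 of 7 lower, Lpl (-2.06 ± 0.14) and Cebpa (-1.44 ± 0.28), and 1 higher (1419 to 2337 against 1198 to 1217). Tendon markers had 2 of 7 lower, Mkx and Fmod, and 1 higher, and of 10 chondrocyte markers only Col2a1 was called. The 10 epithelial markers summed to 1262 to 1487 in line A and 3041 to 3423 in line B, with Krt19 and Cldn4 (0.36 ± 0.10) higher. The calls of Cebpa, Fmod and Cldn4 were not kept in every fit that left out 1 array. In those fits Cebpa differed by -2.15 to -0.73 and Fmod by -3.24 to -0.57. The epithelial cadherin Cdh1 (-0.01 ± 0.10, mean log2 signal 4.31 in line A) and the leukocyte gene Ptprc (0.03 ± 0.09, mean 4.63) were near the floor. Of 10 macrophage and leukocyte markers Csf1r (-1.35 ± 0.13) and Cd53 (-1.18 ± 0.10) were lower and Cd68 (0.91 ± 0.11) higher, with summed signals of 2732 to 3807 in line A and 2120 to 2500 in line B. No skeletal muscle, neural crest or pericyte marker was called by limma, with 2 of 10, 1 of 10 and 1 of 6 at an unadjusted p under 0.05. The part of other cells in the differences above was not tested.

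Genes of chromosome 8 as a group read higher in line B. The chromosome of each gene was taken from RefSeq (GRCm38.p6), and genes with a mean log2 signal of 6.80 or more, the 40th percentile, were counted. On chromosome 8 the median difference of 665 genes was 0.42, a ratio of 1.34, and 90.7% of them were above 0. It was 0.41 in the GCN5+/- arrays and 0.41 in the GCN5-/- arrays. On the other chromosomes the medians lay between -0.14 (chromosome 7) and 0.19 (chromosome 14), and between duplicate RNAs of line A no chromosome's median moved by more than 0.06. Called higher were 394 of the 665 genes (59.2%), and 22 were called lower (3.31%). Chromosome 8 held 5.12% of the measured genes but 404 of the 1642 named genes called higher in line B at any level (24.6%), and only 24 of the 215 that were at least 2-fold higher. Off chromosome 8, 1236 of 17089 genes were called higher (7.23%) and 1600 lower (9.36%). DNA copy number was not measured, and its part in this was not tested.

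**Figure D4:**
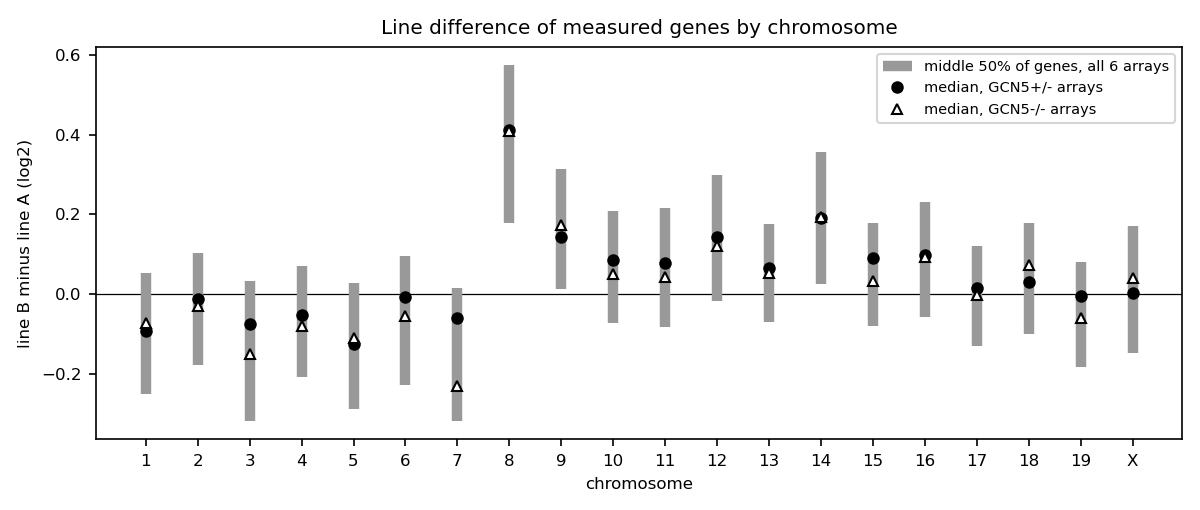
Line B minus line A in log2 signal (y axis) for measured genes of each chromosome (x axis): circles and triangles give the median in the GCN5+/- and in the GCN5-/- arrays, grey bars the middle 50% of genes over all 6 arrays. Chromosome 8 stands at 0.41 in both genotypes. Chromosome 7 stands at -0.06 in GCN5+/- and -0.23 in GCN5-/- arrays. Over the 6 arrays together, which the points do not show, every chromosome median except that of chromosome 8 lies between -0.14 and 0.19.

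Within chromosome 8 the shift was shared by most genes rather than set by a few: 90.7% of the 665 counted genes read higher in line B. Whether it ran along the whole length of the chromosome was not tested. The 3 windows of 25 neighbouring measured genes with the highest medians in the genome all lay there, at 0.50 (Slc7a6 to Psmd7), 0.50 (Tacc1 to Rab11fip1) and 0.48 (Mpv17l2 to Plvap), with 17, 18 and 18 genes called higher and none lower. Most of these differences were modest, such as Fgfr1, a growth factor receptor, at 0.36 ± 0.08 and the kinase subunit Pik3r2 at 1.02 ± 0.12. Genes of chromosome 8 that differed far more than the chromosome did so in both directions: Cdh3, Irx5, Adcy7 (2.01) and Clcn3 (1.94) upwards, and Sfrp1, Tenm3 (-2.47), Maf (-2.40) and Lpl (-2.06) downwards.

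The windows with the lowest medians lay elsewhere, on chromosomes with medians of -0.13 (chromosome 3) and 0.01 (chromosome 17). On chromosome 3, 11 of 25 genes from P2ry1 to Mfsd1 were called lower and 1 higher (median -0.38). Shox2 is in this window. So is Rarres1, a retinoid-responsive gene, at 10.67, 11.09, 10.02 and 10.27 in line A and 6.41 and 6.53 in line B (-4.04 ± 0.20, limma adjusted p = 5.23e-06). Mlf1 (-2.48 ± 0.14), the protease inhibitor Lxn (-2.16 ± 0.15), Ptx3 (-2.21 ± 0.16) and Kcnab1 (-2.47 ± 0.13) are in it as well. On chromosome 17, 11 of 25 genes from Has1 to Zfp945 were lower and 2 higher (median -0.36), and all 11 were zinc finger genes, with Zfp760 (-1.96 ± 0.11), Zfp229 and Zfp983 (-1.21 ± 0.09) among them and Zfp52 higher (0.96 ± 0.12). The third window, from Dennd2d to Gstm1 on chromosome 3 (median -0.30), held 11 lower genes, including AI504432 (-3.13 ± 0.14), Slc6a17 (-2.16 ± 0.14) and the glutathione transferases Gstm2 (-1.28 ± 0.09) and Gstm5 (-1.11 ± 0.08). Short probes of related zinc finger genes or transferases may share targets, and each is reported as its probe set reads.

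The line difference could be read once in each genotype, from separate arrays of the same lines. Of the 270 genes at least 1 log2 unit higher in line B in the GCN5+/- arrays, 270 were also above 0 in the GCN5-/- arrays, with a median of 1.20 there against 1.42. Of the 542 that were at least 1 log2 unit lower in the GCN5+/- arrays, 536 were also below 0 in the GCN5-/- arrays (98.9%), with a median of -1.19 against -1.54. Pearson's correlation of the 2 differences over 18193 genes, which share chips, lines and probe sets within a line, was 0.84.

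**Figure D5:**
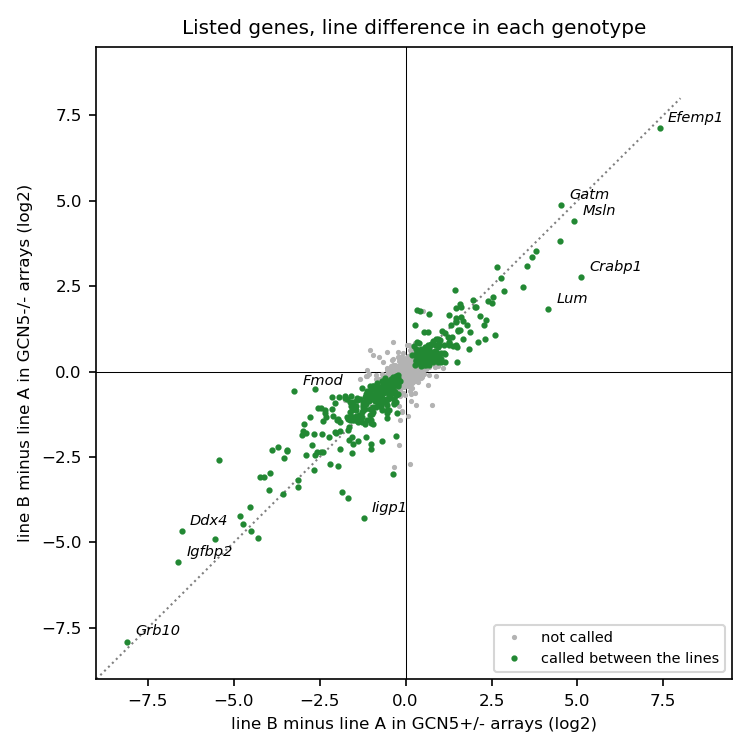
Line B minus line A (log2) in the GCN5+/- arrays (x axis) and in the GCN5-/- arrays (y axis) for the genes of the lists, with genes called between the lines in green; the dotted line marks equal differences. Grb10 (-8.11 and -7.90) lies close to it, and Crabp1 (5.10 and 2.76) and Iigp1 (-1.23 and -4.29) lie away from it.

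A smaller number of genes separated the lines to a different extent in the 2 genotypes. The interaction of line and genotype, fitted with 2 residual degrees of freedom that both come from the line A duplicates, was called by limma at 27 probe sets (0.0600%), and 2853 had an unadjusted p under 0.05 (6.33%). Without line A GCN5+/- replicate 1 the count was 54. At 15 of the 27 line B was below line A in both genotypes, at 6 above in both, and at 6 the signs differed. Lum and Crabp1 were higher in line B in both genotypes but less so in GCN5-/- arrays, and Fmod, a small proteoglycan of tendon, separated the lines more in GCN5+/- arrays: at 1 probe set it was at 10.19 and 10.21 in line A GCN5+/-, 6.66 and 6.50 in line A GCN5-/-, and 5.84 and 5.21 in line B. Serpinb2, an inhibitor of plasminogen activators, was at 4.28, 4.25, 5.12 and 5.05 in line A and at 5.88 and 8.94 in line B.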

How the data were processed

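Total RNA of 6 samples was hybridised to Affymetrix arrays. The deposited values are log2 signals per probe set; that they are log2 follows from their range (3.13 to 15.2). Per the submitters' processing notes, the software comprised MAS5 (listed for 6 samples) and Partek (listed for 1), the role of each unstated; no source used here gives background correction, normalization or filters. The array medians lay within 0.05 of each other; whether and how the arrays were scaled to each other was not tested, and scaling would remove a change shared by most genes. Of 45101 probe sets 64 controls were left out; 34945 of the others had 1 gene symbol, 932 several and 9160 are unnamed here, and 34741 matched RefSeq (GRCm38.p6) by Entrez identifier. limma 3.58.1 in R 4.3.3 fitted line and genotype (lmFit, eBayes with trend), with Benjamini-Hochberg adjustment over 45037 probe sets and a threshold of 0.05. The fit was tested on simulated data. Noise there was drawn independently for each array, so that test could not cover the population that line A duplicates share. Without counts, the number of arrays limits precision; 2 line B arrays against 4 cannot reach an exact two-sided permutation p below 0.133. Line A duplicates share a population, so p-values over arrays are too small for a statement about populations. The members and 58 gene lists were chosen with earlier results of these data known. Named genes were the targeted, Xist, Y-linked and Ink4/p53 genes, and 15 per direction by size. Those 15 came from called probe sets on which the arrays of the lines did not overlap. Up to 6 called members per list and direction, or members whose role is explained, were named too. So were up to 8 interaction genes, equal fibroblast markers, and 3 windows of 25 genes per direction.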

Additional observations from a re-analysis of the deposited data

Results flagged for a closer look

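The line difference (line B minus line A) was not the same in the 2 genotypes for 8 named genes, by the interaction term of limma, whose residual degrees of freedom come only from the line A duplicates. Given as the difference in GCN5-/- minus that in GCN5+/- arrays, it was -3.53 ± 0.23 (SE) for Xaf1 (limma adjusted p = 0.00403), -3.09 for Gm4951 and -3.06 for Iigp1, genes induced by interferon, which at the probe sets used here were highest in the line A GCN5-/- arrays. Iigp1 was at 7.06, 7.43, 12.08 and 12.03 in line A and 6.02 and 7.77 in line B. It was 3.11 for Sema3d, 2.99 for Fmod and 2.24 for Serpinb2, and -2.34 for Crabp1 and -2.32 for Lum. The adjusted p of these 8 lay between 0.00403 and 0.0403. Xaf1 was also the 1 gene of 262 with several probe sets whose probe sets were called in both directions between the lines (-4.06 at the lowest and 0.82 at the highest); at the second, the brighter one, the line B GCN5-/- array was the highest, at 11.41 against 9.86 and 10.24 in line A GCN5-/-. No group of arrays was large enough for a check of single outlying arrays.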

How the results depend on the processing

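Every one of the 6361 calls kept its sign in each of the 17 refits in which it was measured. In many refits this was fixed in advance, because they change the error and not the difference. These were the refits without a genotype term or variance trend, with averaged duplicates, with either block, with the line by genotype product and with the level filter. Leaving out a line B array gives the same differences as the arrays of the other genotype alone. Counts moved more. Without a genotype term 2956 probe sets were called (1557 higher, 1399 lower), with a random block for the 4 cell populations 9890 (5161 and 4729), in the GCN5+/- arrays alone 4007 (1819 higher), in the GCN5-/- arrays alone 3121 (1474 and 1647), and at 2-fold or more 1234 (424 and 810). Leaving out 1 array gave 3016 to 5398 calls (1396 to 2829 higher, 1620 to 2771 lower), the lowest without the line B GCN5+/- array. The interaction gave 13 calls with a level filter at the 40th percentile, 11 after quantile normalization, 2 without the variance trend and 21 to 54 without 1 line A array; these were chosen after seeing the data. With the replicate block on the numbers of the line A duplicates, which may be only a number, 7163 were called (3663 higher, 3500 lower), 6221 of them shared; A1 minus A2 differences of the genotypes correlated at 0.37. Off chromosome 8 (chosen after seeing the data) 1236 named genes were higher and 1600 lower, and the chromosome 8 median lay between 0.28 and 0.43 over 19 settings. Of 360 single probe sets followed, 324 were called, none reversed (with the same limit), and up to 123 lost the call (without a genotype term). Precision is limited by 1 array per genotype of line B.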
